A study of Mus musculus with 6 samples.

Results

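The genes described are 10 mouse deubiquitinases: the relatives of Bap1 in the ubiquitin C-terminal hydrolase (UCH) family, Uchl1, Uchl3 and Uchl5, and enzymes reported to take ubiquitin off histone H2A or H2B, Usp16, Usp21, Usp3, Mysm1, Usp22, Usp12 and Usp46. They were chosen by family and reported substrate, with earlier results of these data known, and were found by gene symbol among 36528 gene models, where all 10 were present. PolyA RNA was read from primary melanocytes, the pigment cells, of mouse skin in 6 libraries, of which 3 carry the label BAP1 KO (knockout) and 3 the label WT (wild type). How the knockout was made, the mouse strain and the age of the animals were not stated in the labels read here. The comparison is BAP1 KO minus WT throughout, so that a positive log2 difference means a higher level in BAP1 KO-labelled libraries. Nothing in the labels ties the libraries of a group to separate cultures or animals, so each p-value reflects the spread among these libraries alone, which may be technical.

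Ubiquitin on histones is written by ligases and taken off by deubiquitinases of several unrelated folds. The monoubiquitin that Polycomb complex 1 places on H2A goes with gene repression, and that on H2B goes with transcribed genes. Most of these enzymes are cysteine proteases of the UCH or USP family, whereas MYSM1 is a zinc metalloprotease, and many work only when bound to partner proteins. BAP1, itself a UCH enzyme, acts on H2A, which is the reason to set the other enzymes beside it.

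Libraries held 33987690 to 43773769 uniquely aligned reads. The targeted gene, Bap1, stood at 73.6, 77.3 and 72.5 CPM, counts per library size after TMM scaling, in BAP1 KO-labelled libraries, against 55.7, 55.6 and 55.8 CPM in WT-labelled ones. Its level was thus higher, not lower, in the knockout-labelled libraries (log2 0.42, SE 0.042, edgeR adjusted p = 3.89e-06), and the counts pool all its exons, so each direction below rests on the labels alone. Marker genes of the labelled cell type were read in all 6 libraries and differed between them. The 12 melanocyte markers summed to 67736.6 to 68533.7 CPM in BAP1 KO-labelled libraries and 8044.1 to 8229.5 CPM in WT-labelled libraries. Tyrp1 and Dct made up most of either sum. Their means were 32808.8 and 16088.9 CPM in BAP1 KO-labelled libraries, and 2797.1 and 1707.7 CPM in WT-labelled libraries. All 12 were higher, with log2 differences from 0.93 to 3.78. Keratinocyte markers, 15 genes led by Cdh1 and Krt14, summed to 499 to 533 CPM in BAP1 KO-labelled libraries and 10440.9 to 10631.4 CPM in WT-labelled libraries, and 12 fibroblast markers to 72.8 to 77.8 CPM in BAP1 KO-labelled libraries and 1015.5 to 1044.1 CPM in WT-labelled libraries. Fbln2 and Postn made up most of the fibroblast sum, with means of 562 and 353 CPM in WT-labelled libraries, and 1 of the 12, Pdgfrb, was higher in BAP1 KO-labelled libraries, at 20.1 CPM, than in WT-labelled ones, at 9.30 CPM (log2 1.11, edgeR adjusted p = 1.43e-07). Fewer cells of a type and less RNA per cell cannot be told apart in bulk RNA, and the part of this difference in any result below was not tested.

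All 10 deubiquitinases were read well enough to test, with 273 to 7968 reads per gene and library. By edgeR's quasi-likelihood test, with p-values adjusted over all genes, 4 were higher in BAP1 KO-labelled libraries (Usp12, Mysm1, Usp21, Usp16) and 6 were lower (Usp46, Uchl3, Usp22, Uchl1, Usp3, Uchl5). Of 17121 genes tested, 81.5% were called in either direction, 39.4% higher and 42.1% lower. A call is thus the usual outcome in this comparison, and the members' count is not a result about them. The counts called in each list below are to be read beside the same shares. The members' log2 differences ran from -1.39 to 0.76, with a median of -0.38, where the median over all genes tested was -0.03. The lower and upper quartiles of all genes were -0.85 and 0.57, so the members' median lay between them. A shift of the members as a set was not tested. More than 2-fold lower were Usp46 and Uchl3, and no member was more than 2-fold higher; over all genes these shares were 22.7% and 13.9%. The median absolute log2 difference was 0.72 for the members and 0.68 for all genes tested. For 9 of the 10 members no library of either label reached into the range of the other label, as for 82.7% of all genes tested, and the exception was Uchl5.

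**Figure D1:**
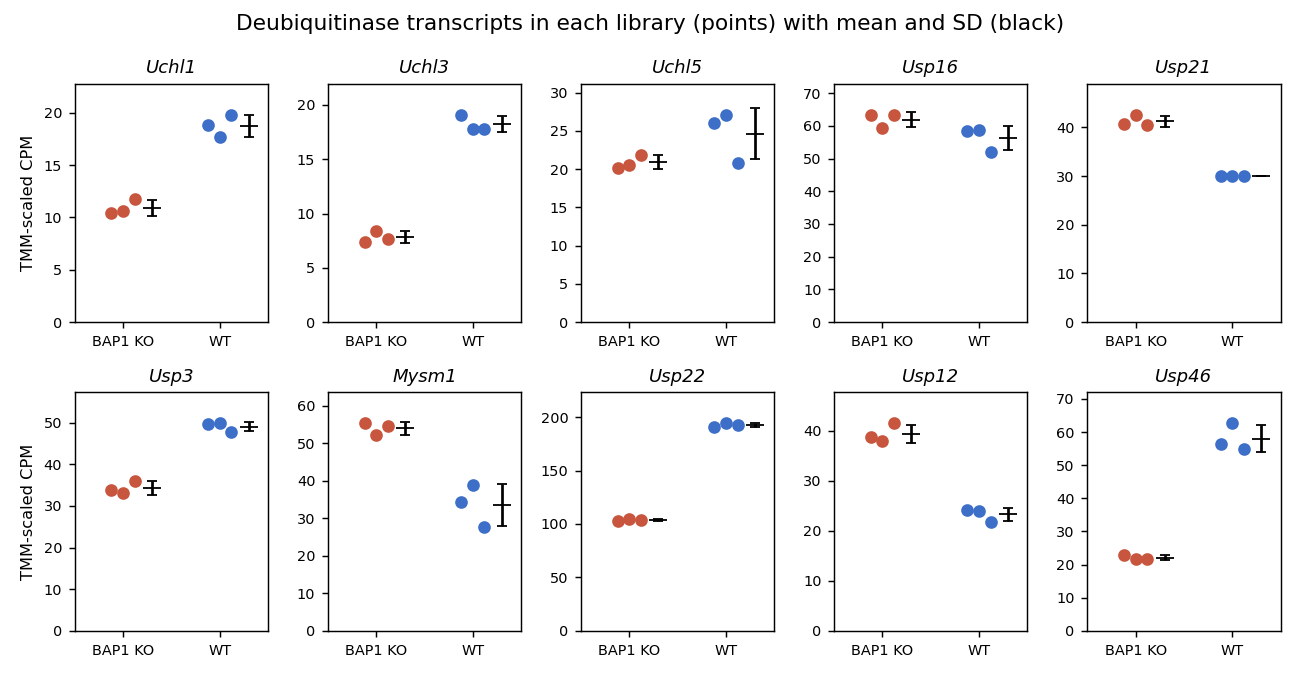
Level of each deubiquitinase transcript (TMM-scaled CPM, y axis from 0) in the 3 BAP1 KO-labelled and the 3 WT-labelled libraries; coloured points are libraries and the black mark is the mean with SD. Usp46, Usp22 and Uchl3 lie clearly lower and Usp12, Usp21 and Mysm1 higher in BAP1 KO-labelled libraries, while the groups overlap for Uchl5.

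The small UCH enzymes Uchl1 and Uchl3 both fell. Uchl1 (gene ID 22223, chromosome 5, 66676121 to 66687234 on GRCm38), an abundant ubiquitin hydrolase of neurons, had 10.4, 10.6 and 11.8 CPM in BAP1 KO-labelled libraries, against 18.8, 17.7 and 19.8 CPM in WT-labelled ones. Every BAP1 KO-labelled library lay below every WT-labelled library, and the log2 difference was -0.78 (SE 0.072, edgeR adjusted p = 1.96e-06). Uchl3 (gene ID 50933, chromosome 14, 101653892 to 101696125), a close relative that also cuts the ubiquitin-like protein NEDD8 from its precursor, had 7.41, 8.42 and 7.61 CPM in BAP1 KO-labelled libraries, against 19.1, 17.8 and 17.8 CPM in WT-labelled libraries. Again the groups did not overlap, at a log2 difference of -1.22 (SE 0.072, edgeR adjusted p = 4.38e-08), a 2.32-fold lower level.

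Both genes have a neighbour or copy that bears on their counts. In GENCODE M21, 18.1% of the exon bases of Uchl1 overlap the antisense transcript Uchl1os, and the library kit does not mark strand, so reads of the pair cannot be told apart there. The files list 1, 5 and 10 reads of Uchl1os in BAP1 KO-labelled libraries and 26, 18 and 22 in WT-labelled ones, small beside the 384 to 816 reads of Uchl1. For Uchl3, 7.26% of its 50-base sequences also occur elsewhere, mostly in Uchl4, a single-exon copy on chromosome 9. Uchl4 itself was lower, at 2.61 ± 0.227 CPM in BAP1 KO-labelled libraries and 5.93 ± 0.360 CPM in WT-labelled libraries (SD, n = 3 each; log2 -1.19, edgeR adjusted p = 1.21e-06), but 26.2% of its 50-base sequences are shared with Uchl3 and its reads are uncertain.

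Uchl1 and Uchl3 were picked for a look at sequence because both fell in these data, and a bearing of the sequences on this was not tested. The RefSeq sequences around their starts (GRCm38.p6, 250 bases before to 50 after the start, read 5′ to 3′ on the gene's strand) are shown, with matches to the motifs searched in capitals.
Uchl1 (chr5:66675871-66676170, plus strand): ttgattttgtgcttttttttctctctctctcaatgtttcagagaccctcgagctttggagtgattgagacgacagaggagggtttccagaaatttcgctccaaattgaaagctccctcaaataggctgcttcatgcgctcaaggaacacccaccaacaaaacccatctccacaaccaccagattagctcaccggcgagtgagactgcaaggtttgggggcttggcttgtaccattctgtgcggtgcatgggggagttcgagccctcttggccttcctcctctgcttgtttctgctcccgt
Uchl3 (chr14:101653717-101654016, plus strand): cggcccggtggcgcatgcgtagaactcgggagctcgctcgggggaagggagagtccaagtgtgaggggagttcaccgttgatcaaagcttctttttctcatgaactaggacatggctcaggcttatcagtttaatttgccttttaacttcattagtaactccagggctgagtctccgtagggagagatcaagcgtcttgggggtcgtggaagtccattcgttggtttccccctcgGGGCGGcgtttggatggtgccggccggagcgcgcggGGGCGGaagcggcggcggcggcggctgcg
The motifs searched, each on both strands, were the GC box GGGCGG, the ETS-type motif CCGGAAG, the E-box CACGTG, the MITF-type motif TCATGTG, the cyclic AMP element TGACGTCA, the TATA box TATAAA and the YY1-type motif AAGATGGCG. None of them contains another, and CACGTG, TGACGTCA and TCATGTG can overlap by their end letters. The Uchl1 window held none of them, with 50.7% G and C and 9 CpG dinucleotides. The Uchl3 window held 2 matches to GGGCGG, with 60.0% G and C and 27 CpG. They begin 15 bases before and 22 bases after the start on which the window was built. That start lies inside the gene, downstream of its first base given above (101653892), so both matches lie after that base. Of 32851 promoter windows of the same length in the table, 35.7% hold GGGCGG.

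Uchl5 (gene ID 56207, chromosome 1, 143777234 to 143807466), which works at the proteasome when bound to ADRM1 and sits in the INO80 remodeller through NFRKB, was the least settled of the 3. It had 20.2, 20.5 and 21.9 CPM in BAP1 KO-labelled libraries, against 26.0, 27.1 and 20.8 CPM in WT-labelled ones. WT replicate 3 lay inside the range of BAP1 KO-labelled libraries, so the groups overlapped. The log2 difference of -0.24 (SE 0.091, edgeR adjusted p = 0.0326) passed the threshold of 0.05 with all libraries. The call was lost in 5 of the 6 fits that left out a library. Without BAP1 KO replicate 1, 2 or 3 the log2 difference was -0.20, -0.21 and -0.26 (edgeR adjusted p = 0.114, 0.108 and 0.0533). Without WT replicate 1 or 2 it was -0.17 and -0.15 (edgeR adjusted p = 0.129 and 0.102), and without WT replicate 3 it was -0.32 (edgeR adjusted p = 1.96e-05). The 13 genes tested of the complexes that UCHL5 joins were Adrm1 of the proteasome and subunits of INO80. Of them 8 rose, 2 fell and 3 did not pass the threshold, with a median log2 difference of 0.28. The share called was 76.9%, beside 81.5% of all genes tested. Ino80d (0.87), Ino80c (0.69), Actr8 (0.65) and Ino80b (0.59), all subunits of the remodeller, rose most. Ruvbl2 (-0.59) and Ruvbl1 (-0.43), also subunits of it, were the 2 that fell. Their counts are uncertain, as 15.4% of the exon bases of Ruvbl2 overlap other transcripts and 49.4% of the 50-base sequences of Ruvbl1 are shared. Nfrkb, the INO80 subunit that binds UCHL5, stood at 51.2 CPM in BAP1 KO-labelled libraries and 42.1 CPM in WT-labelled libraries (log2 0.28), and Adrm1 at 4.22 CPM in BAP1 KO-labelled libraries and 4.12 CPM in WT-labelled libraries, although 25.7% of the Adrm1 sequence is shared with another gene, which makes its count uncertain.

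Among the enzymes known for H2A, Usp21 and Mysm1 were higher, Usp16 barely so and Usp3 lower. Usp21 (gene ID 30941, chromosome 1, 171281949 to 171287961), an H2A deubiquitinase linked to the start of transcription, had 40.7, 42.6 and 40.5 CPM in BAP1 KO-labelled libraries, against 30.0, 30.0 and 30.0 CPM in WT-labelled ones. The groups did not overlap, and the log2 difference was 0.46 (SE 0.045, edgeR adjusted p = 3.42e-06). The WT libraries were closer to each other, with a coefficient of variation of 0.059%, than the 2.97% that counting error alone gives at their depth, so this spread understates the error. Mysm1 (gene ID 320713, chromosome 4, 94942037 to 94979155), the metalloprotease, needed in mice for blood cell formation, had 55.3, 52.1 and 54.7 CPM in BAP1 KO-labelled libraries, against 34.4, 38.8 and 27.7 CPM in WT-labelled libraries. Its WT libraries were the most spread of any member, with a coefficient of variation of 16.6%, and all lay below BAP1 KO-labelled ones. Its log2 difference was 0.69 (SE 0.098, edgeR adjusted p = 6.63e-05), and leaving out single libraries gave 0.59 to 0.81.

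Usp16 (gene ID 74112, chromosome 16, 87454985 to 87483515), an H2A deubiquitinase with a part in cell division, changed least. It had 63.4, 59.2 and 63.2 CPM in BAP1 KO-labelled libraries, against 58.3, 58.7 and 52.1 CPM in WT-labelled ones. The lowest BAP1 KO-labelled library lay just above the highest WT-labelled one, and the log2 difference of 0.14 (SE 0.056, edgeR adjusted p = 0.0436) was small beside the 0.42 of Bap1. The call was lost with library totals in place of TMM factors (log2 0.07, edgeR adjusted p = 0.223), with at least 5 CPM required in 3 libraries (0.06, edgeR adjusted p = 0.361), and without BAP1 KO replicate 1 or 3 (edgeR adjusted p = 0.110 and 0.0933). In the same libraries 14 of 14 tested marker genes of the S and G2/M phases were higher, with a median of 0.96, beside 39.4% of all genes tested. Their part in the Usp16 level was not tested. Usp3 (gene ID 235441, chromosome 9, 66514639 to 66593148), which acts on H2A and H2B after DNA damage, had 33.9, 33.0 and 36.1 CPM in BAP1 KO-labelled libraries, against 49.7, 49.8 and 47.7 CPM in WT-labelled libraries. It fell without overlap, with a log2 difference of -0.51 (SE 0.049, edgeR adjusted p = 2.77e-06).

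Usp22 (gene ID 216825, chromosome 11, 61151781 to 61175059), the deubiquitinase of the SAGA coactivator, which takes ubiquitin off H2B and also H2A, had the highest level per length of the 10 and fell. It had 103, 105 and 104 CPM in BAP1 KO-labelled libraries, against 191, 194 and 193 CPM in WT-labelled ones. The groups did not overlap, and the log2 difference was -0.89 (SE 0.035, edgeR adjusted p = 1.47e-09), a 1.86-fold lower level. Its coefficients of variation, 0.790% in BAP1 KO-labelled and 0.757% in WT-labelled libraries, lay below the 1.58% and 1.17% that counting error alone gives, so here too the spread understates the error. Of the 5 adaptor genes tested whose proteins hold and activate USP22 in SAGA, 3 rose and 2 did not pass the threshold, with a median of 0.33. Atxn7, which tethers the module, stood at 61.9 ± 0.355 CPM in BAP1 KO-labelled libraries and 33.0 ± 1.34 CPM in WT-labelled libraries (SD, n = 3 each; log2 0.91, edgeR adjusted p = 1.11e-08). Atxn7l1 and Eny2 were higher by 0.49 and 0.33, whereas Atxn7l3, the direct activator, stood at 112 CPM in BAP1 KO-labelled libraries and 116 CPM in WT-labelled libraries (log2 -0.05). Of the USP22 relatives that can take its place with ATXN7L3 and ENY2, Usp27x stood at 5.32 CPM in BAP1 KO-labelled libraries and 6.29 CPM in WT-labelled libraries (log2 -0.24, edgeR adjusted p = 0.0553). Usp51 had 25 reads over BAP1 KO-labelled libraries and 19 over WT-labelled ones, too few to test.

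Usp12 and Usp46, close paralogs that share the activators WDR48 and WDR20, moved in opposite directions. Usp12 (gene ID 22217, chromosome 5, 146734809 to 146794956) had 38.8, 38.0 and 41.5 CPM in BAP1 KO-labelled libraries, against 24.2, 24.0 and 21.8 CPM in WT-labelled ones. Every BAP1 KO-labelled library was higher than every WT-labelled library (log2 0.76, SE 0.059, edgeR adjusted p = 4.48e-07). Usp46 (gene ID 69727, chromosome 5, 73998726 to 74068411) had 22.9, 21.7 and 21.8 CPM in BAP1 KO-labelled libraries, against 56.3, 62.6 and 55.0 CPM in WT-labelled libraries. It had the largest fall of the 10, again with no overlap (log2 -1.39, SE 0.060, edgeR adjusted p = 3.01e-09). Only 2.22% of the 50-base sequences of Usp12 and 3.50% of those of Usp46 also occur elsewhere, mostly in Gm8902 and the antisense transcript Usp46os2, so reads of 50 bases could rarely come from either paralog.

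The ratio of their reads within a library does not depend on how libraries are scaled. Usp12 had 1.69, 1.75 and 1.90 reads for each read of Usp46 in BAP1 KO-labelled libraries, against 0.429, 0.383 and 0.396 in WT-labelled ones. The mean log2 ratio was 0.83 ± 0.0859 in BAP1 KO-labelled libraries and -1.31 ± 0.0853 in WT-labelled libraries (SD, n = 3 each), a difference of 2.14 or 4.42-fold (exact two-sided permutation test, p = 0.10, the smallest that 3 against 3 can give). Per length the order of the pair was turned round: Usp12 made up 69.7%, 70.5% and 72.1% of their summed RPKM in BAP1 KO-labelled libraries and 36.9%, 34.3% and 35.1% in WT-labelled ones. The sum itself differed less, at 11.4, 11.0 and 11.7 RPKM in BAP1 KO-labelled libraries, against 13.1, 13.7 and 12.6 RPKM in WT-labelled libraries. The sum was added after the values were seen and was not tested. The corresponding log2 ratio of Uchl1 to Uchl3 was 0.48 ± 0.148 in BAP1 KO-labelled libraries and 0.04 ± 0.0986 in WT-labelled libraries (SD, n = 3 each; exact two-sided permutation test, p = 0.10), a difference of 0.44 between genes that both fell.

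**Figure D2:**
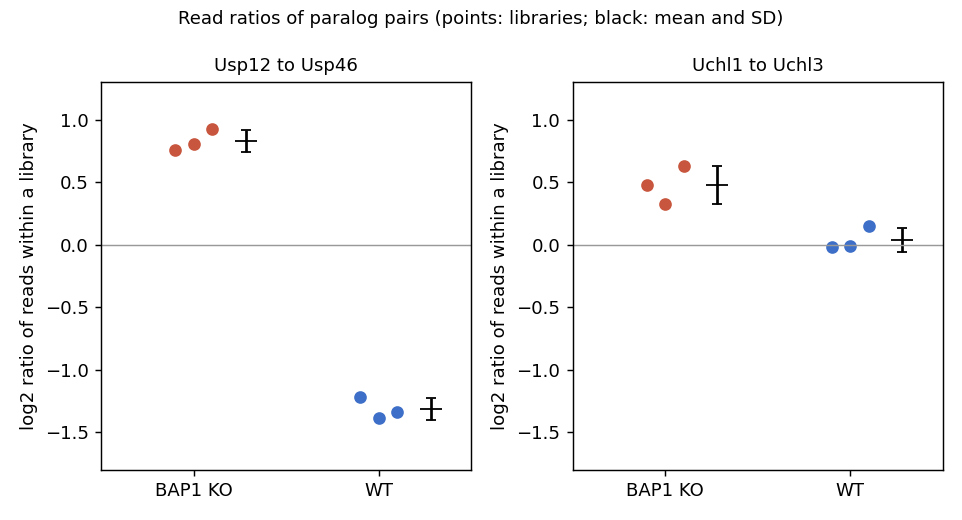
Log2 ratio of reads of Usp12 to Usp46 (left) and of Uchl1 to Uchl3 (right) within each BAP1 KO-labelled and each WT-labelled library; points are libraries and the black mark is the mean with SD. The Usp12 to Usp46 ratio lies above 0 in all 3 BAP1 KO-labelled libraries and below 0 in all 3 WT-labelled ones, while the Uchl1 to Uchl3 ratios differ by 0.44.

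The RefSeq windows around the starts of Usp12 and Usp46 are shown because the pair moved in opposite directions, with GGGCGG, or CCGCCC where the match is on the other strand, in capitals; in a longer run of capitals neighbouring matches share 1 base.
Usp12 (chr5:146794907-146795206, minus strand): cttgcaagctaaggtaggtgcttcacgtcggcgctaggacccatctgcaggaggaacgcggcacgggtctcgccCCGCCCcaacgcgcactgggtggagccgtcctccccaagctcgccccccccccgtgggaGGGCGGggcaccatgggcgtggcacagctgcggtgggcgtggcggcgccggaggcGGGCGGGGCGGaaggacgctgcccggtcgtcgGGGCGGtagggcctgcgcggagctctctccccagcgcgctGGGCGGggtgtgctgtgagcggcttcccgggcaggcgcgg
Usp46 (chr5:74068362-74068661, minus strand): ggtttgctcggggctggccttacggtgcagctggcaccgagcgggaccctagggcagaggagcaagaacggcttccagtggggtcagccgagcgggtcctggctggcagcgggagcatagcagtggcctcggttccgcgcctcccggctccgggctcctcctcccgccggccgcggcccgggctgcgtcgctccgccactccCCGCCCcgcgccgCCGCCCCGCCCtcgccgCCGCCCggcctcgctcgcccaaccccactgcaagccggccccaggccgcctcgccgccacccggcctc
The Usp12 window held 6 matches to GGGCGG and the Usp46 window 4, and neither held any other motif searched. Both are rich in G and C, at 75.7% and 78.0%, with 37 and 38 CpG dinucleotides. Over the 9 members with a matched window (Usp22 had none), the median was 25 CpG, against 7 over all windows. GGGCGG was found in 7 of the 9, against 35.7% of all windows. The 32851 windows were not limited to the 17121 genes tested, as the members were, so these are unlike sets. The ETS-type motif CCGGAAG was found in the Usp16 and Mysm1 windows, against 8.86% of all windows, and the E-box CACGTG in that of Usp16, against 7.15%. The motif TCATGTG, which MITF can bind, was in none of the 9 and in 3.77% of all windows. The same held for TGACGTCA (1.79% of all windows), TATAAA (13.6%) and AAGATGGCG (1.4%). A match is a description of the letters and not a measured site. The windows printed were picked by direction of change in these data, and a bearing of the motifs on it was not tested.

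The shared activators of USP12 and USP46 also parted. Wdr48 stood at 128 ± 2.93 CPM in BAP1 KO-labelled libraries and 73.9 ± 0.856 CPM in WT-labelled libraries (SD, n = 3 each; log2 0.80, edgeR adjusted p = 8.56e-09), although 14.9% of its exon bases overlap Gorasp1. Wdr20 was lower, at 16.2 ± 0.111 CPM in BAP1 KO-labelled libraries and 21.4 ± 0.494 CPM in WT-labelled libraries (log2 -0.40, edgeR adjusted p = 3.66e-05), and its relative Dmwd was higher by 0.63.

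Levels of different genes can be set side by side only per length, in the deposited RPKM. The gene lengths behind it were not stated, and the order below depends on them. In BAP1 KO-labelled libraries Usp16 had 61.9 CPM and 17.8 RPKM, and Usp3 had 34.4 CPM and 3.23 RPKM. The RPKM thus takes Usp16 as shorter than Usp3, whereas GENCODE M21 gives 9454 exon bases to Usp16 and 6848 to Usp3. With other lengths the places of both could differ. In BAP1 KO-labelled libraries the order of means was Usp22 (22.0), Usp16 and Usp21 (17.8 each), Uchl5 (9.52), Uchl1 (8.96), Usp12 (8.04), Mysm1 (6.45), Uchl3 (5.54), Usp46 (3.32) and Usp3 (3.23). There Usp16 and Usp21, Uchl5 and Uchl1, and Usp46 and Usp3 overlapped between neighbours. In WT-labelled libraries the order was Usp22 (40.1), Usp16 (15.9), Uchl1 (15.1), Usp21 (12.7), Uchl3 (12.6), Uchl5 (11.0), Usp46 (8.49), Usp12 (4.65), Usp3 (4.51) and Mysm1 (3.92). Overlapping neighbours were Usp16 and Uchl1, Usp21 and Uchl3, Usp12 and Usp3, and Usp3 and Mysm1. Usp22 was first under both labels. Mysm1 stood above Usp46 in every BAP1 KO-labelled library and below it in every WT-labelled library.

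**Figure D3:**
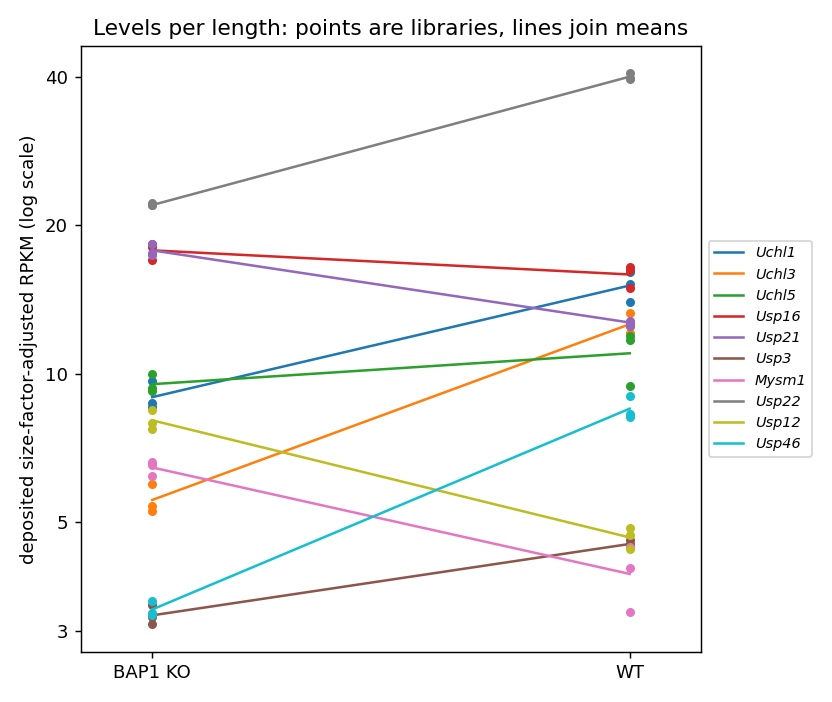
Deposited size-factor-adjusted RPKM (log scale) of each gene in BAP1 KO-labelled libraries (left) and WT-labelled ones (right); points are libraries and lines join the means. Usp22 is highest on both sides, at a mean of 22.0 RPKM in BAP1 KO-labelled libraries and 40.1 RPKM in WT-labelled ones, and the lines of Usp12 and Usp46 cross.

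**Figure D4:**
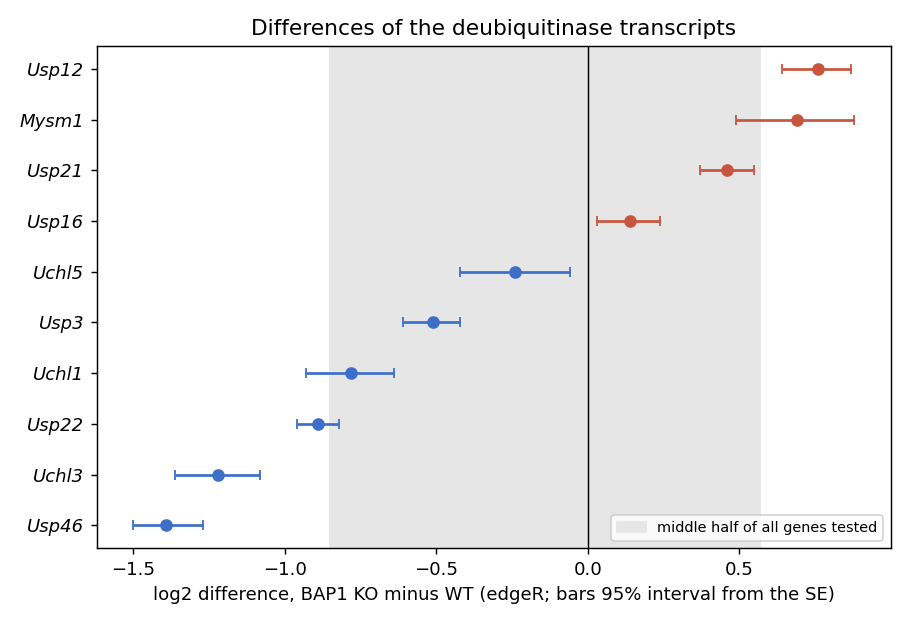
Log2 difference, BAP1 KO minus WT, of the 10 genes with bars of 1.96 standard errors (edgeR); the grey band spans the lower to the upper quartile of all genes tested, -0.85 to 0.57. Usp46, Uchl3 and Usp22 lie below the band and Usp12 and Mysm1 above it.

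Set against all genes tested, the differences of the 10 were mostly middling. The absolute log2 difference of Usp46, the most changed, was larger than that of 73.1% of genes, that of Uchl3 larger than 69.5%, that of Usp22 larger than 59.6% and that of Uchl1 larger than 55.2%. Among the genes that rose, Usp12 exceeded 54.0%, Mysm1 50.5% and Usp21 37.0%, while Usp16 exceeded only 11.9%. Within 1.96 standard errors Usp16 ran from 0.03 to 0.24 and Uchl5 from -0.42 to -0.06. The ranges of Usp22 (-0.96 to -0.82) and Usp46 (-1.50 to -1.27) did not meet. The 1.96 is a normal multiple, so these ranges are narrower than 95% intervals of the quasi-likelihood test.

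The gene most changed of the 10 was Usp46. The profiles most like it, among the 72 genes tested of other deubiquitinase families and folds, were those of Usp20, Usp35 and Usp30. Likeness was the root mean square distance between log2 levels centred on each gene's mean over the 6 libraries, and was 0.105, 0.130 and 0.301 for the 3 genes. Their own log2 differences were -1.26, -1.29 and -0.81. All 3 were lower in BAP1 KO-labelled libraries, as Usp46 was. This follows from picking genes by likeness to Usp46, whose own profile is set mainly by its fall, and is no separate result.

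Other genes of deubiquitinase families and folds were set beside the 10. They were listed by family or fold, and not every one encodes a deubiquitinase, as with Eif3h and Prpf8 on the JAMM and MPN list. Of 77 genes on 4 lists, 72 were tested, of which 33 rose, 21 fell and 18 did not pass the threshold. Their median was 0.11 and their median absolute log2 difference 0.36. The share called was 75%, beside 81.5% of all genes tested. The median absolute log2 difference of all genes tested was 0.68, near the 0.72 of the 10. In both measures these lists lay below all genes tested. Among 9 other enzymes reported to act on histones, 5 rose, 1 fell and 3 did not pass the threshold (median 0.32). Usp11 led them, at 52.9 ± 0.855 CPM in BAP1 KO-labelled libraries and 14.1 ± 0.392 CPM in WT-labelled libraries (SD, n = 3 each; log2 1.91, edgeR adjusted p = 3.83e-11), followed by Usp49 (0.89), Usp48 (0.63) and Brcc3 (0.60); 52.3% of Usp49 overlaps Gm20517, so its count is uncertain. Of 32 further USP genes, 14 rose, 7 fell and 11 did not pass the threshold (median 0.12). Usp32 stood out upward, at 292 ± 4.87 CPM in BAP1 KO-labelled libraries and 79.2 ± 3.34 CPM in WT-labelled libraries (log2 1.88, edgeR adjusted p = 1.42e-11), with Usp2 at 1.29, and Usp43 (-3.01, 12.8% of its exons overlapping another transcript) and Usp35 (-1.29) were lower.

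Of 10 genes with the JAMM or MPN fold of MYSM1, 3 rose, 6 fell and 1 did not pass the threshold (median -0.29). Mpnd rose by 0.96 beside Mysm1, while the endosomal Stambpl1 was lower at -3.79 and the proteasome and signalosome members Psmd14 and Cops6 at -0.69 and -0.42. Of 21 OTU, Josephin, MINDY and ZUP1 genes, 11 rose, 7 fell and 3 did not pass the threshold (median 0.20). Mindy2 (1.99), Josd2 (1.84) and Mindy4 (1.64) rose, with 10.5% of the exon bases of Mindy2 overlapping Gm10642. Tnfaip3, the NF-kappaB brake A20, stood at 5.70 ± 0.558 CPM in BAP1 KO-labelled libraries and 201 ± 3.35 CPM in WT-labelled libraries (log2 -5.14, edgeR adjusted p = 2.89e-13), a far larger fall than that of any of the 10. Keratinocyte markers were lower in the same libraries (median -4.19), and their part in this fall was not tested.

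The writers of histone ubiquitin were examined beside the erasers. Of 8 H2A ligase genes tested, 5 were higher and 3 lower (median 0.62), beside 39.4% and 42.1% of all genes tested. Brca1 (1.82), Trim37 (1.60), Rnf168 (0.77) and the Polycomb ligase Ring1 (0.74) rose. Its paralog Rnf2 was lower, at 37.2 CPM in BAP1 KO-labelled libraries and 47.2 CPM in WT-labelled libraries (log2 -0.34). Bard1 (-0.44) and Rnf8 (-0.26, 13.2% of its exon bases overlapping other transcripts) also fell. These 3 were named after their values were seen. Of 11 H2B ligase and cofactor genes, 3 rose, 5 fell and 3 did not pass the threshold (median -0.13). The ligase Rnf20 stood at 92.2 CPM in BAP1 KO-labelled libraries and 92.0 CPM in WT-labelled libraries and did not pass the threshold, and of the PAF1 complex that assists it Paf1 rose by 0.64 while Ctr9 and Leo1 fell by 0.57 and 0.50. Of the 4 ubiquitin precursor genes, 1 was higher and 3 lower, but 26.3% to 48.1% of their 50-base sequences are shared with pseudogenes and other copies, so their unique counts are uncertain.

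**Figure D5:**
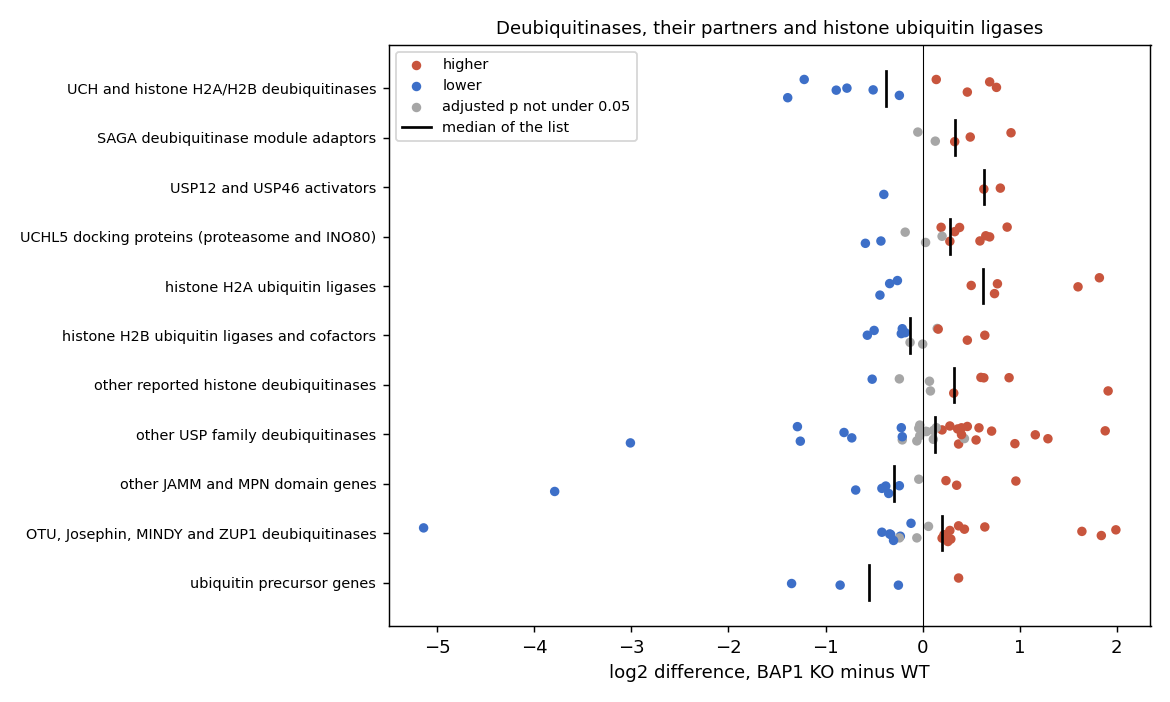
Log2 difference, BAP1 KO minus WT, of each gene tested, by list; red points are higher, blue lower and grey not past an adjusted p of 0.05, and the black line is the list's median. The 10 genes of the top row have a median of -0.38, the USP22 adaptors 0.33 and the H2A ligases 0.62.

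Uchl1 is often used to mark neurons and neuroendocrine cells, so their other markers were read beside it. Of 12 such genes, 6 did not pass the count filter, among them Snap25, with 1 read over all BAP1 KO-labelled libraries and 2 over all WT-labelled ones, and Rbfox3, with 0 reads in BAP1 KO-labelled libraries and 4 in WT-labelled libraries. Of the 6 tested, 2 were higher and 4 lower (median -1.10), and the 12 summed to 123 to 133 CPM in BAP1 KO-labelled libraries and 105 to 108 CPM in WT-labelled libraries. The most abundant of them went opposite ways, Eno2 higher by 2.96 and Tubb3 lower at -0.82. Other lists gave 5 of 6 immune markers higher and 1 lower (median 1.19), 2 of 6 endothelial and mural markers higher and 4 lower (median -1.16), and 4 of 9 Schwann cell and glial markers higher and 4 lower (median 0.29). Cd207, a Langerhans cell marker, had 0 reads in all 6 libraries.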

How the data were processed

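Total RNA was purified on columns with DNase digestion and made into TruSeq RNA v2 libraries, read as single-end reads of 50 bases on a HiSeq4000, per the labels' protocols. Reads were processed with GSNAP on GRCm38, per the submitters' processing notes; no source read here gives versions, the counting tool or the annotation. Each library's file holds, per the file headers, a count of uniquely aligned reads for every gene model and a size-factor-adjusted RPKM. This deposited RPKM served only for levels per length and for the authors' library factors.

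Of 36528 numeric gene IDs, 31049 (85.0%) took a symbol from the RefSeq table of GRCm38.p6; unmatched IDs held 1.09% of reads. Genes were kept by filterByExpr (minimum count 10, minimum total 15), given TMM factors of 0.975 to 1.03, and tested by quasi-likelihood (glmQLFit, glmQLFTest) in edgeR 4.0.16 under R 4.3.3, without covariates, at a Benjamini-Hochberg adjusted p under 0.05 over 17121 genes. A standard error is the absolute log2 difference over the square root of F. No library repeated another of its label, as all pairs differed beyond sampling noise. Chi-square over degrees of freedom was 2.01, 2.3 and 4.1 for pairs of BAP1 KO-labelled libraries. For WT-labelled pairs it was 3.91 (replicates 1 and 2), 8.09 (1 and 3) and 17.4 (2 and 3), so WT replicate 3 stood furthest apart. Replicates were numbered in submission order. Exon overlap and shared 50-base sequences come from GENCODE M21, with Python 3.11.15; promoter windows come from RefSeq.

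The members and lists were chosen with earlier results of these data known. The text names the 10 members, Bap1 and up to 4 called genes per pathway list by absolute log2 difference. It also names up to 2 called genes per marker list by mean CPM. The 3 genes of the deubiquitinase family and fold lists most like the most changed member (distance on log2 of CPM plus 0.5) are named too. Nfrkb, Adrm1, Ruvbl1, Ruvbl2, Atxn7l3, Usp27x, Usp51, Bard1, Rnf8, Rnf20, Rnf2, Uchl4, Snap25, Rbfox3, Pdgfrb and Cd207 were added after their values were seen. Alternatives were DESeq2 size factors, library totals, upper-quartile or the authors' factors, no count filter, a minimum of 5 CPM in 3 libraries, limma-voom (limma 3.58.1), DESeq2 1.42.0, robust edgeR, an adjusted p under 0.01, and leaving out each library.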

Additional observations from a re-analysis of the deposited data

How the results depend on the processing

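No paired analysis was possible because the labels give no replicate numbers or pairing. All 10 members kept their direction under each of 16 alternatives, and 8 kept their call under all of them; the exceptions were Uchl5 and Usp16. Usp16 was not called with library totals (log2 0.07) or with at least 5 CPM in 3 libraries (0.06), and neither Usp16 (0.14) nor Uchl5 (-0.24) passed an adjusted p under 0.01. With each library left out in turn, Uchl5 ranged from -0.32 to -0.15 and Usp16 from 0.11 to 0.19, with calls lost as described for each gene. The cause was not tested. The count of members called ranged from 3 to 4 higher and 5 to 6 lower, and the ratio of Usp12 to Usp46 differed by 2.10 to 2.19 (log2) over 7 alternatives. Scalings moved the median of all genes by at most 0.06. Without a count filter, which tests 27083 genes, it moved by -0.15, and the members' median was then -0.34. With at least 5 CPM in 3 libraries, which tests 11930 genes, the median of all genes moved by 0.01. The members' median was then -0.45, and it was -0.44 with library totals, against -0.38 in the main test. Depth limits Uchl3 and Uchl1 most, whose lowest counts in a library were 273 and 384 reads.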
